A study of Mus musculus with 6 samples.

Results

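Open chromatin was described here around Trp53, the gene of the transcription factor p53, and around 9 genes that p53 is known to act on: Mdm2, Pmaip1, Trp53inp1, Fas, Bbc3, Bax, Ccng1, Phlda3 and Sesn2. These are 10 of the 21938 protein-coding genes of the annotation on the assembled chromosomes. For each gene, every ATAC-seq peak that overlapped the gene body or the 20 kb on either side of it (GENCODE M21, GRCm38) was taken from 6 libraries. Overlapping peaks were merged into regions, which gave 68 regions of the 120143 regions of the whole series. ATAC-seq maps open DNA by letting a transposase cut and tag it.

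p53 is held at low levels by MDM2, a ubiquitin ligase that marks it for degradation, and it accumulates after DNA damage and other stress. It binds response elements made of a pair of half-sites and switches on genes for cell-cycle arrest, repair and cell death, Mdm2 among them, which closes a feedback loop. In neural stem cells the pathway is known for restraining self-renewal and for removing damaged progenitors.

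The libraries came from neural stem cell cultures of the subependymal zone (SEZ), the neurogenic niche beside the lateral ventricle, of C57BL/6J mice 10 weeks of age. All cultures, in both states, carried a CRISPR-Cas9 deletion of the Srr2 enhancer of Sox2 on both alleles (Srr2 del/del). Proliferating cells (PROLIF) were kept 2 days in vitro (2 DIV) with mitogen on Matrigel. Early differentiating cells (DIFF) were kept for the same time with FGF and then for 1 day without mitogens in medium with 2% serum (2 + 1 DIV). Each state had 3 libraries, replicates 1, 2 and 4. No wild-type library was used, so every comparison is between the states within the mutant. These are cultures of many cells, and a region open in more of the cells cannot be told apart from one opened further in each cell. The study describes its ATAC-seq replicates as biological and independent, and counts them as cultures. How many animals each culture came from is not stated in the labels, so a spread between replicates may be partly technical.

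The lists held 60006 to 88039 peaks, and the background pileup, which follows depth, ran from 2.85 reads in PROLIF replicate 4 to 6.01 reads in DIFF replicate 4, the deepest library. Of the marker genes of the labelled cell type, 6 of 7 neural stem and progenitor genes had a peak within 3 kb of a start in all 6 libraries, among them Sox2, Nes and Olig2. The same held for 2 of 4 neuronal, 2 of 4 oligodendrocyte, 2 of 5 microglial and 1 of 5 endothelial genes. One of the microglial genes, P2ry12, had a start region that ranked higher in PROLIF (adjusted p = 0.0112, limma), and its part in the results below was not tested. From 3 to 5 kb downstream of the Sox2 start, where the study places the deleted enhancer, 1 of the 6 libraries had a peak (DIFF replicate 4).

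Levels are given as percentiles. The best peak of a region, by the −log10 p of the authors' caller, was placed among all peaks of its own list, so that 100 is the strongest peak of a library and 0 the weakest. Percentiles do not depend on the scale of a library, but they do depend on how many weak peaks its list holds. A peak missing from a list is a signal under the caller's threshold and not closed chromatin. For regions with a peak in all 6 libraries, the states were compared with limma on the normal score of the rank, a scale in standard deviations, over 40164 such regions and with Benjamini-Hochberg adjustment over all of them. The score ranks these shared regions alone and can part from the percentiles. In the region 8.31 kb upstream of Ccng1 the mean percentile was 3.70 points higher in DIFF, with a score difference of -0.01. A region is called PROLIF-only or DIFF-only where all 3 libraries of that state had a peak in it and the other state had none.

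Sequences of 5 regions that differed between the states are shown first, because later values belong to these stretches. They are 150 bases around the summit of the peak that ranked best in the region, plus strand of GRCm38, read from RefSeq's copy of that build. Capitals mark the letters TGANTCA, the core bound by AP-1 factors, which was searched on both strands.
Trp53, just past its 3′ end, higher in DIFF, chr11:69592431-69592580: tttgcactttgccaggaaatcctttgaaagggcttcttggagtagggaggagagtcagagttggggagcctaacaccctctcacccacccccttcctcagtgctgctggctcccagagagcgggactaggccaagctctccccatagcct
Trp53, near the window's edge, DIFF-only, chr11:69611010-69611159: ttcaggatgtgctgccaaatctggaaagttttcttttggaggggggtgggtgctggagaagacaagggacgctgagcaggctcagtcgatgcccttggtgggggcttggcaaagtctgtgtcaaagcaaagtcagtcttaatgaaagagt
Phlda3, 13 kb upstream, higher in DIFF, chr1:135753076-135753225: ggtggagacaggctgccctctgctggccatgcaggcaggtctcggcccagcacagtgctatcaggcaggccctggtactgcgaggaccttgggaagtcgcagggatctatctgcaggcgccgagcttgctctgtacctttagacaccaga
Bbc3, within an intron, higher in PROLIF, chr7:16313992-16314141: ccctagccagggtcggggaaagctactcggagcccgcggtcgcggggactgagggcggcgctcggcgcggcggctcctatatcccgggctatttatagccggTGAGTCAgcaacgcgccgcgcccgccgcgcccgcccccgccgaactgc
Phlda3 window, at the Tnni1 start, PROLIF-only, chr1:135782897-135783046: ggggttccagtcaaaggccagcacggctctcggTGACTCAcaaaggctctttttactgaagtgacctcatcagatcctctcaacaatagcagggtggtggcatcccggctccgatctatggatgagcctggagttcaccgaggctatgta

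The Bbc3 and Tnni1 stretches hold TGANTCA within these bases. The region upstream of Pmaip1, which also ranked higher in PROLIF and is not printed, did not hold it in the 300 bp around its summit. Nor did any region that ranked higher in DIFF or was DIFF-only. The matches among the regions that differed by these rules were thus all on the PROLIF side, without covering every region there. Under the paired form of occupancy given at the end, the pattern did not hold. A region of the Bax window, with peaks in DIFF replicates 2 and 4 and in no PROLIF library, then counted for DIFF and held TGANTCA. Over windows of 300 bp centred on the summit, TGANTCA was present in 12 of the 68 member regions (17.6%) and in 10.9% of 119719 regions of the series on assembled chromosomes. The member regions that differed are too few to read more from this, and a match is a run of letters, not a bound site. The Bbc3 stretch stood out for its base composition, with 74% G and C.

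The p53 response element itself was searched as a pair of adjoining half-sites on both strands, with the core of each intact and at most 2 other mismatches. It was found in the 300 bp windows of 2 of the 68 member regions (2.94%), against 0.318% of all regions. Searching the whole width of each region added 2 more, both in the Ccng1 window. Over whole widths the element was in 5.88% of the member regions, against 0.396% of all regions. The elements of the Mdm2 and Ccng1 windows are printed in capitals with 20 bases on either side, plus strand of GRCm38, to show the letters behind these counts.
Mdm2, in the region 7.04 kb upstream of the start, 1 mismatch, chr10:117717716-117717775: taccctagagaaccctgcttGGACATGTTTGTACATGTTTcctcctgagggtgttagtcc
Ccng1, 366 bp past the start in an intron, 1 mismatch, chr11:40754916-40754975: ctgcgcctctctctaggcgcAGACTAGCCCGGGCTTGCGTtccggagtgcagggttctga
Ccng1 window, in the region over the Hmmr start, 2 mismatches, chr11:40734136-40734195: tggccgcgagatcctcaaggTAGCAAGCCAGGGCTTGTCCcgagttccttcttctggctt

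The fourth match, with 2 mismatches, lay 94 bp upstream of the Pmaip1 start, in its start region. No match says only that these letters are not in the window. With spacers of up to 13 bases allowed between the half-sites the count stayed at 2 of 68 while 3.10% of all regions matched, and with at most 1 mismatch it was 1 of 68. The Mdm2 element also holds CATG followed 6 bases later by CATG, a run found in 3 of the 68 member regions and in 0.784% of all regions. The letters ACAATG, the core of SOX sites, were in 7 of the 68 regions (10.3%) and in 16.0% of all regions.

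All 10 genes had a region over an annotated coding start with a peak in every one of the 6 libraries. A peak within 3 kb of a start in all 6 libraries was present for 63.2% of the protein-coding genes. The start regions were ordered by their mean percentile over the 6 libraries. Ccng1, which encodes cyclin G1, stood highest at 99.7 ± 0.0699 (SD over 6 libraries), and Trp53 itself stood lowest at 42.0 ± 15.0. Between them came Trp53inp1 at 97.5 ± 1.34, Mdm2 at 95.8 ± 3.92, Phlda3 at 88.8 ± 4.62, Fas at 87.6 ± 2.25, Bbc3 at 86.4 ± 2.84, Pmaip1 at 84.9 ± 3.63, Sesn2 at 84.5 ± 5.06 and Bax at 74.2 ± 6.82. Ccng1 lay above Trp53inp1, and Bax above Trp53, in every library with no overlap of their ranges. All other neighbours in this order had overlapping ranges. Among 12155 regions over a protein-coding start with a peak in all 6 libraries the median was 85.7, near the median of 87.0 over the 10 members. Of those 12155 regions, 3.27% had a lower mean than the Trp53 start and 99.3% a lower mean than the Ccng1 start.

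**Figure D1:**
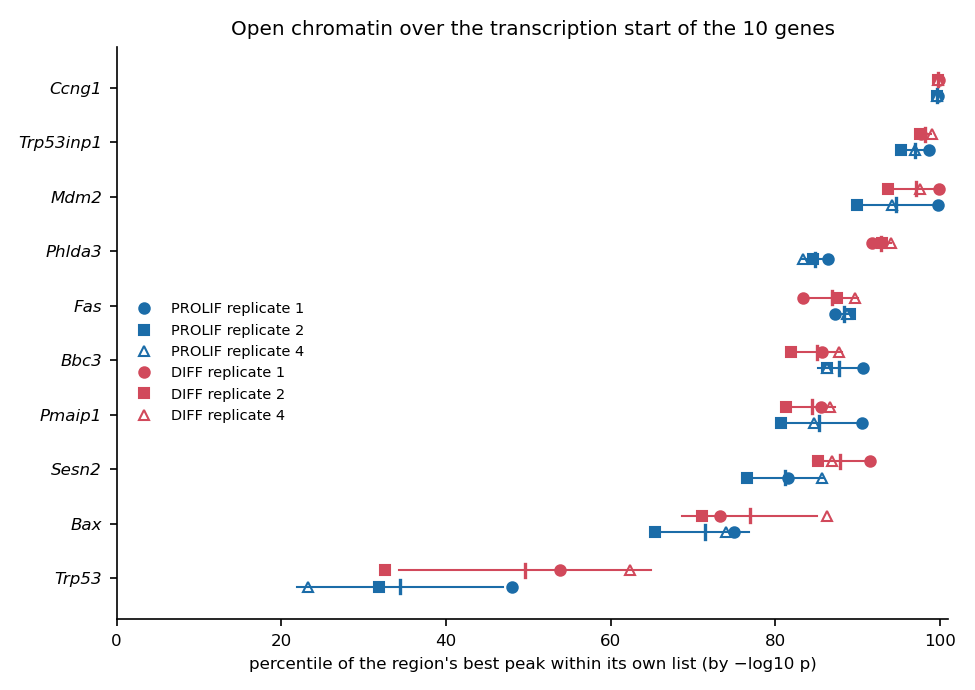
Percentile of the start region of each of the 10 genes within its own peak list (x axis, 0 to 100), with 1 point per library, a vertical tick for the mean and a bar for ± 1 SD of each state (n = 3). Ccng1 sits near 99.7 in all 6 libraries, Trp53 between 23.3 and 62.3, and the states separate without overlap at Phlda3.

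Summits of the start regions lay within 149 bp of the nearest annotated start in 9 genes, and 237 bp past it in Bax. Widths ran from 517 bp at Trp53 to 2200 bp at Bbc3, where the median over all start regions was 1022 bp. The share of G and C in the 300 bp window ran from 53% at Trp53 to 77% at Phlda3, around a median of 65% over all start regions. Trp53 was thus the narrowest, the poorest in G and C and the lowest in rank of the 10.

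Between the states, 4 of the 35 member regions with a peak in all 6 libraries ranked higher in DIFF (11.4%) and 2 ranked higher in PROLIF (5.71%). Over all 40164 regions these shares were 9.76% and 11.2%. The members' share was near that of the series for DIFF and lower for PROLIF, where it rests on 2 regions. Of the 10 start regions, that of Phlda3 ranked higher in DIFF and none ranked higher in PROLIF, against 9.29% and 3.70% of all start regions. Of the 20 shared member regions over no protein-coding start, 3 ranked higher in DIFF and 2 in PROLIF, against 9.96% and 14.4% of such regions in the series. The median score difference, DIFF minus PROLIF, was 0.17 over the 35 member regions and 0.046 over all 40164. Over start regions alone it was 0.16 for the 10 members and 0.107 for all start regions with a peak in all 6 libraries. With the replicate number as a block, 7 member regions ranked higher in DIFF, against 13.4% of all regions, and 2 ranked higher in PROLIF, against 13.7%. The regions added were the Mdm2 start, the region 1.12 kb past the Trp53 start and the Atp1b2 start beside Trp53.

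**Figure D2:**
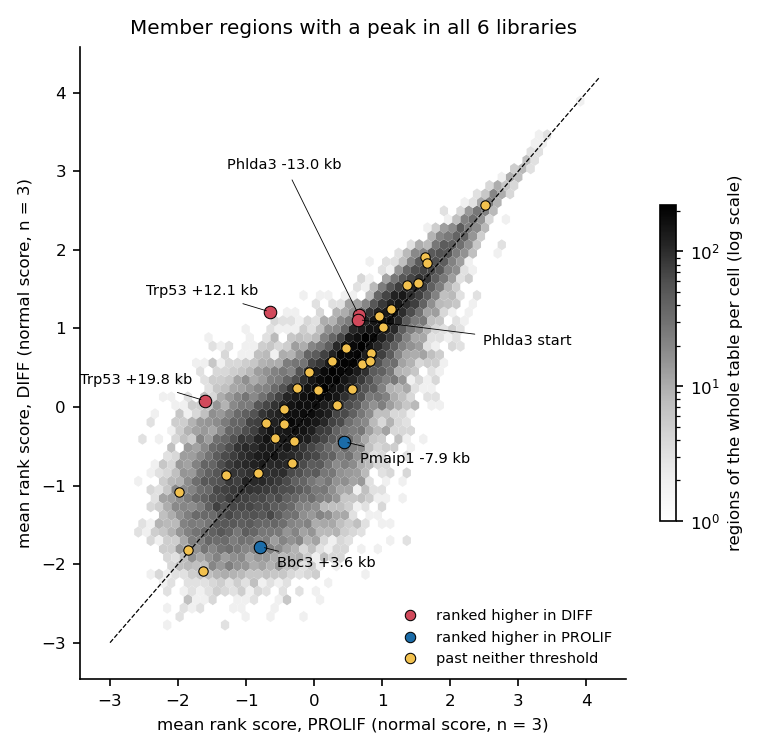
Mean rank score of each region in the PROLIF libraries (x axis) and the DIFF libraries (y axis), both normal scores over 3 libraries, for the 35 member regions with a peak in all 6 libraries (circles) and for all 40164 such regions (grey cells, log colour scale). The 6 member regions that passed the test are labelled, and the pair beside Trp53 lies farthest above the dashed line of equal scores.

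Occupancy added 1 PROLIF-only region (1.47% of 68, against 1.78% of all 120143 regions and 1.64% of the regions within 20 kb of a protein-coding gene) and 2 DIFF-only regions (2.94%, against 3.47% and 3.62%). The count of DIFF-only regions was unstable and rose to 5 without DIFF replicate 1 and to 7 without DIFF replicate 2. With a library left out the rule asks for fewer DIFF libraries, and the share of all regions that meet it then is not given. The rise can therefore not be read as a trait of the members. A peak in all 6 libraries was found in 35 of the 68 regions (51.5%, against 33.4% of all regions and 37.6% of the regions within 20 kb of a protein-coding gene). A peak in a single library was found in 7 regions (10.3%, against 29.7% of all regions and 26.5% of those near genes). By position, 10 regions covered a member's own start and 2 more lay within 3 kb of one, 4 lay in the member's introns and 1 in an exon. Another 12 lay at or within 3 kb of a neighbour's start, 11 in a neighbour's gene body and 28 between genes.

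**Figure D3:**
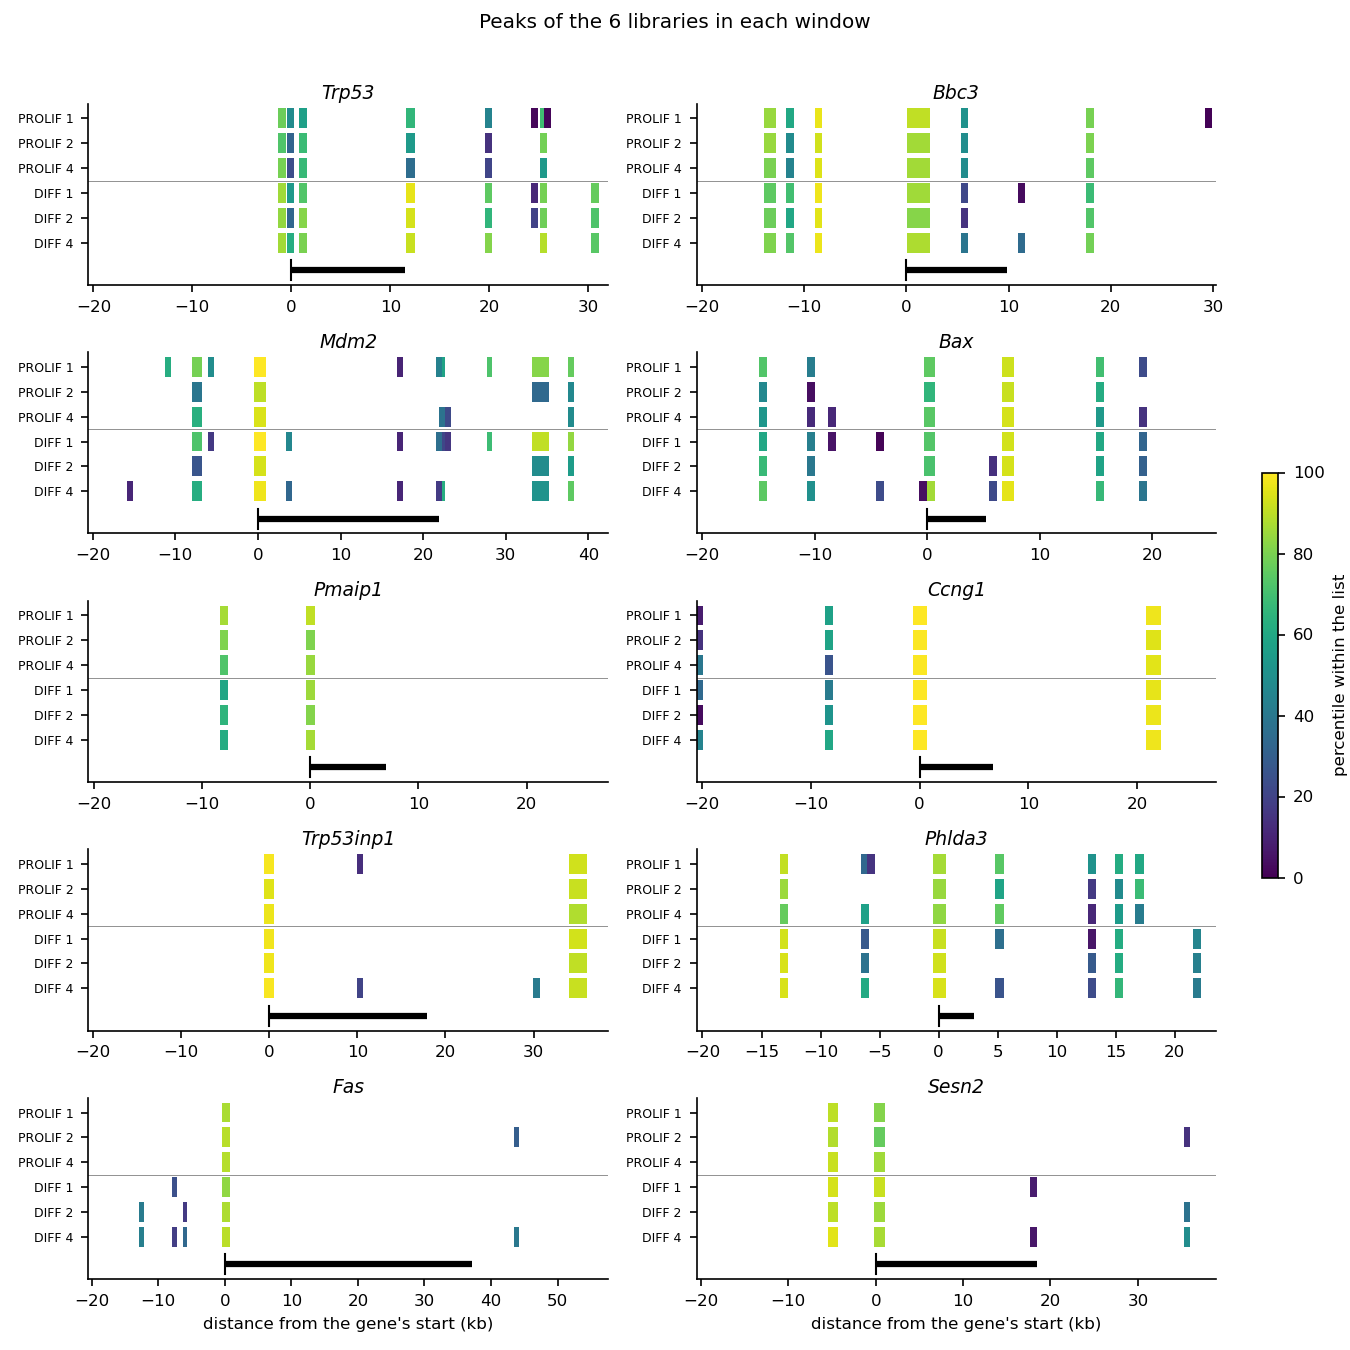
Peaks of each library (rows) by distance from the first annotated base of each gene in kb (x axis, along the gene's direction), coloured by the percentile of the region's best peak within its list; the black bar is the gene body and short regions are drawn at a minimum width of 0.7 kb. Start regions are filled in all 6 rows of every panel, while Mdm2 shows rows of replicate 1 with more marks than the others and Fas has a single region shared by all rows.

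Trp53 (ENSMUSG00000059552.13, chr11:69580359-69591873, plus strand) had 8, 6 and 6 peaks in its window in PROLIF replicates 1, 2 and 4, and 8, 8 and 7 in DIFF. The region over its start (chr11:69580041-69580557) had percentiles of 48.0, 31.9 and 23.3 in PROLIF and of 53.8, 32.6 and 62.3 in DIFF. These groups overlapped, and the score difference of 0.43 ± 0.321 (SE) did not pass (adjusted p = 0.367). The region 0.996 kb upstream, over the start of Wrap53, which runs in the opposite direction and encodes a telomerase and p53 antisense factor, was stronger. It had percentiles of 77.7, 72.6 and 79.4 in PROLIF and of 85.7, 83.6 and 86.1 in DIFF, ranges that did not overlap, with an adjusted p of 0.147. Its fold enrichment over the local background did not rise, with means of 8.17 ± 0.505 in PROLIF (SD, n = 3) and 7.87 ± 0.840 in DIFF. The region 1.12 kb past the start had percentiles of 56.6, 68.0 and 67.5 in PROLIF and of 72.9, 81.7 and 79.9 in DIFF. It missed the threshold (adjusted p = 0.132) and passed it with the replicate block (adjusted p = 0.0490). Its mean fold enrichment was 6.23 ± 0.825 in PROLIF (SD, n = 3) and 6.47 ± 1.63 in DIFF.

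The largest change among the members lay just past the 3′ end of Trp53. The region chr11:69591974-69592835 had its summit 633 bp beyond the end of the gene and 10.2 kb from the nearest coding start, that of Atp1b2. Its percentiles were 65.7, 54.0 and 35.5 in PROLIF replicates 1, 2 and 4 and 96.2, 93.7 and 91.7 in DIFF. Every DIFF library thus placed it near the top of its list, above all PROLIF libraries. Fold enrichment over the local background was 8.56, 6.34 and 4.68 in PROLIF and 12.6, 14.6 and 11.2 in DIFF. The score was higher in DIFF by 1.85 ± 0.186 (SE; adjusted p = 7.45e-06, limma), the 114th largest increase of the 40164 regions tested.

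A second region towards Atp1b2 moved the same way. Atp1b2 encodes the beta-2 subunit of the sodium pump, an adhesion molecule of glia, and lies on the minus strand 3′ to Trp53. The region chr11:69600045-69600595 lay 2.49 kb from an Atp1b2 start, with percentiles of 44.7, 14.3 and 20.4 in PROLIF and of 75.1, 65.6 and 81.5 in DIFF. All DIFF libraries were above all PROLIF libraries, and the score difference was 1.68 ± 0.287 (SE; adjusted p = 6.47e-04). The region over another start of Atp1b2 had percentiles of 69.3, 78.9 and 53.8 in PROLIF and of 79.2, 77.8 and 88.8 in DIFF, with an adjusted p of 0.0803, or 0.0286 with the replicate block. The DIFF-only region of the window, chr11:69610667-69611432, had percentiles of 76.5, 72.0 and 73.9 in the DIFF libraries and no peak in any PROLIF library. It lay 5.26 kb from the nearest coding start, again that of Atp1b2, and 0.441 kb inside the window's edge. The next region, 2.12 kb outside that edge, had a peak in 4 libraries. Taking the windows as 5 kb on either side in place of 20 kb left out this region and the one near Atp1b2.

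**Figure D4:**
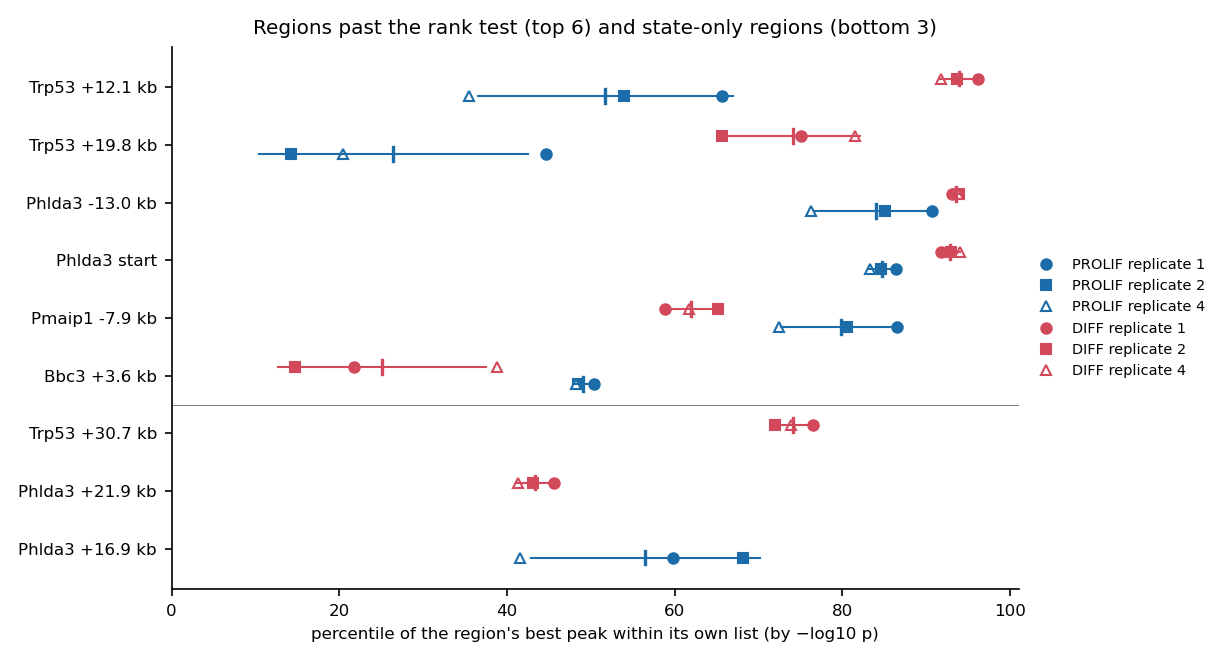
Percentile within the own list (x axis, 0 to 100) of the 6 member regions that passed the rank test (upper part) and of the 3 state-only regions (lower part), with 1 point per library, a tick for the mean and a bar for ± 1 SD of each state (n = 3); labels give the distance of the summit from the nearest start of the member gene. The region 12.1 kb past the Trp53 start runs from 35.5 to 65.7 in PROLIF and from 91.7 to 96.2 in DIFF, and state-only regions have points in 1 state.

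Mdm2 (ENSMUSG00000020184.15, chr10:117688875-117710758, minus strand) was treated apart, since the stretch of chromosome 10 that holds it had more peaks in replicate 1 of both states. Its window had 12, 4 and 5 peaks in PROLIF replicates 1, 2 and 4, and 14, 4 and 10 in DIFF. Per 10000 peaks of the list these were 1.45, 0.60 and 0.833 in PROLIF and 1.96, 0.566 and 1.14 in DIFF. The mean of the 2 replicate 1 libraries was 2.18 times that of the other 4. In the stretch chr10:117000001-118000000 there were 135, 29 and 50 peaks in PROLIF and 117, 36 and 70 in DIFF. The median local background there was 2.23 and 3.92 times the library's own in replicate 1 of PROLIF and DIFF, and from 0.999 to 1.12 times in the other 4 libraries. Of the 13 Mdm2 regions, 12 had a peak in a replicate 1 library, and 2 (15.4%) had peaks in both replicate 1 libraries and no other, a pattern seen in 0.742% of all regions and in none of the 55 regions of the other 9 genes. A peak in any replicate 1 library was found in 77.8% of all regions. The cause of the excess in replicate 1 was not tested.

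**Figure D5:**
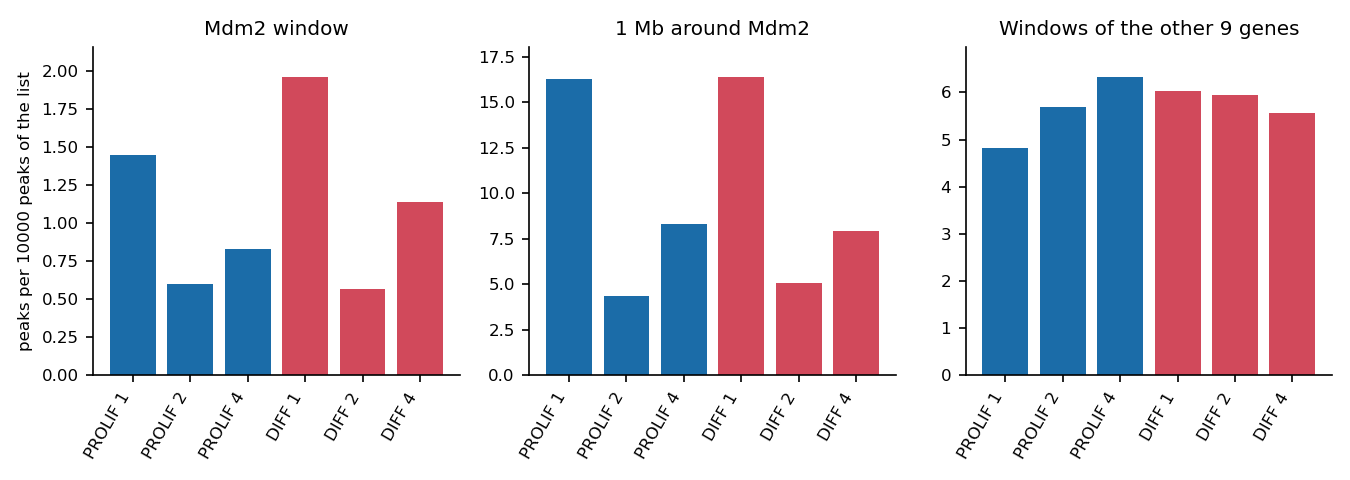
Peaks per 10000 peaks of the list (y axis, a separate scale from 0 in each panel) in the Mdm2 window, in the 1 Mb that holds Mdm2 and in the windows of the other 9 genes, with 1 bar per library (blue PROLIF, red DIFF). Replicate 1 of each state is highest at Mdm2 and in the 1 Mb, at 16.3 and 16.4 in the latter, while in the windows of the other 9 genes PROLIF replicate 1 is the lowest library at 4.83 and DIFF replicate 1 is at 6.03, beside 5.94 and 5.57 in the other DIFF libraries.

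A peak in all 6 libraries was found in 3 of the Mdm2 regions. The start region (chr10:117709719-117711208) had percentiles of 99.7, 89.9 and 94.2 in PROLIF and of 99.9, 93.7 and 97.6 in DIFF, so replicate 1 was highest in both states. Its score difference of 0.27 ± 0.357 (SE) did not pass (adjusted p = 0.628). By percentile, DIFF was higher within 3 of 3 replicate pairs, and the fit with the replicate block passed (adjusted p = 0.0416). Fold enrichment was 11.9, 8.79 and 9.43 in PROLIF and 10.2, 11.8 and 11.6 in DIFF, so by fold DIFF was lower in the replicate 1 pair. In that pair the percentiles were close to their ceiling. Without DIFF replicate 1 the score difference was -0.20 and without PROLIF replicate 2 it was -0.06. The region 7.04 kb upstream, which holds the p53 element printed above, had percentiles of 79.0, 39.3 and 62.9 in PROLIF and of 72.2, 26.4 and 62.4 in DIFF, and the states overlapped (adjusted p = 0.496). It was the sole one of these 3 to lie between genes. The last lay in an intron of the neighbour Cpm, with percentiles of 46.8 to 76.2 in PROLIF and of 54.7 to 83.9 in DIFF. The introns of Mdm2 itself held 2 weak regions, seen in replicate 1 libraries and DIFF replicate 4.

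Pmaip1 (ENSMUSG00000024521.8, chr18:66458533-66465565, plus strand) encodes NOXA, a BH3-only protein that frees the death programme by binding anti-apoptotic BCL2 proteins. Its window held 2 regions, each with a peak in all 6 libraries. The start region had percentiles of 90.5, 80.7 and 84.7 in PROLIF and of 85.5, 81.3 and 86.6 in DIFF, and the states overlapped (adjusted p = 0.503). The region 7.92 kb upstream, chr18:66450346-66450820, had percentiles of 86.5, 80.5 and 72.4 in PROLIF and of 58.9, 65.2 and 61.7 in DIFF. All PROLIF libraries were above all DIFF libraries. The score fell by 0.88 on going to DIFF, with an SE of 0.189 (adjusted p = 0.00359), and fold enrichment was 15.1, 11.3 and 8.84 in PROLIF against 6.04, 8.34 and 5.70 in DIFF.

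Bbc3 (ENSMUSG00000002083.13, chr7:16308393-16318205, plus strand) encodes PUMA, another BH3-only protein. Its window had 7, 7 and 8 peaks in PROLIF and 8, 6 and 7 in DIFF. The broad start region (chr7:16308487-16310686) had percentiles of 90.6, 86.2 and 86.2 in PROLIF and of 85.7, 81.9 and 87.7 in DIFF (adjusted p = 0.217). An intronic region, chr7:16313954-16314250, 3.61 kb past the nearest start, had percentiles of 50.4, 48.5 and 48.2 in PROLIF and of 21.7, 14.7 and 38.8 in DIFF. The groups did not overlap, and the score difference was -0.99 ± 0.341 (SE) with an adjusted p of 0.050, just under the threshold. Leaving out any 1 of the 6 libraries raised it to between 0.0602 and 0.15. The strongest region away from every start, 8.63 kb upstream, had percentiles of 96.8, 92.7 and 94.6 in PROLIF and of 97.4, 95.6 and 97.2 in DIFF, above the start region itself in every library, and did not pass (adjusted p = 0.263).

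Bax (ENSMUSG00000003873.11, chr7:45461697-45466898, minus strand) encodes a pore-forming effector of the outer mitochondrial membrane. It lies among 5 other coding genes, and 10 regions fell in its window, with 6, 5 and 7 peaks in PROLIF and 8, 7 and 9 in DIFF. Its start region (chr7:45466243-45467185) had percentiles of 75, 65.4 and 74.0 in PROLIF and of 73.3, 71.1 and 86.2 in DIFF, and the states overlapped (adjusted p = 0.592). The strongest region of the window was that of the neighbour Ftl1, a ferritin light chain gene, with percentiles of 91.5 to 93.5 in PROLIF and of 93.3 to 95.9 in DIFF (adjusted p = 0.538). None of the 5 shared regions passed the test.

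Fas (ENSMUSG00000024778.13, chr19:34290666-34327772, plus strand) encodes a death receptor of the cell surface. The start region (chr19:34290283-34291437) was the sole region with a peak in all 6 libraries, with percentiles of 87.2, 89.1 and 88.7 in PROLIF and of 83.4, 87.5 and 89.6 in DIFF (adjusted p = 0.465). Further regions 5.94, 7.61 and 12.3 kb upstream had peaks in 2 of the 3 DIFF libraries each and in no PROLIF library. They were weak, with percentiles of 16.9 to 42.6, and each had a peak in DIFF replicate 4, the deepest library. Fas had 1, 2 and 1 peaks in PROLIF and 2, 3 and 5 in DIFF, and no peak fell within its introns apart from the start region.

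Trp53inp1 (ENSMUSG00000028211.11, chr4:11156431-11174379, plus strand) encodes a stress-induced nuclear protein that acts with p53 in death and autophagy. Its start region (chr4:11155897-11156927) had percentiles of 98.6, 95.2 and 96.9 in PROLIF and of 97.7, 97.6 and 99.0 in DIFF (adjusted p = 0.380). The other strong region of the window covered the start of Ccne2, the gene of cyclin E2, with percentiles of 88.1 to 92.6 in PROLIF and of 90.6 to 93.0 in DIFF and a score difference of -0.01 ± 0.119 (SE; adjusted p = 0.979). An intronic region was seen in PROLIF replicate 1 and DIFF replicate 4.

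Ccng1 (ENSMUSG00000020326.7, chr11:40748552-40755311, minus strand) had its start region (chr11:40754676-40755917) close to the top of every list, where percentiles have little room to vary. Its percentiles were 99.7, 99.6 and 99.6 in PROLIF and 99.8, 99.7 and 99.7 in DIFF, and the score difference was 0.05 ± 0.101 (SE; adjusted p = 0.779). Fold enrichment, which has no such ceiling, was 17.3, 16.0 and 16.4 in PROLIF and 17.3, 17.1 and 16.2 in DIFF. All 4 regions of the window had a peak in every library and none passed the test. The farthest crosses the window's edge, and 1 of its 6 peaks fell inside the window, which gave counts of 3, 4 and 3 in PROLIF and 3 in each DIFF library. The region over the start of Hmmr, a mitotic spindle and hyaluronan receptor gene, had percentiles of 95.3 to 97.6 in PROLIF and of 96.1 to 97.6 in DIFF (adjusted p = 0.770). Both regions upstream of Ccng1, at 8.31 and 20.3 kb, were below percentile 60 in all 6 libraries.

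Phlda3 (ENSMUSG00000041801.5, chr1:135766119-135769136, plus strand) encodes a small pleckstrin-homology protein that restrains AKT signalling. It was the one member whose start region passed the test. That region (chr1:135765637-135766721) had percentiles of 86.4, 84.6 and 83.3 in PROLIF and of 91.7, 92.9 and 94.0 in DIFF, with every DIFF library above every PROLIF library. The score difference was 0.46 ± 0.116 (SE; adjusted p = 0.00986). The region 13 kb upstream, chr1:135752851-135753208, had percentiles of 90.7, 85.1 and 76.3 in PROLIF and of 93.1, 93.9 and 93.8 in DIFF. It too was higher in DIFF, by 0.52 ± 0.135 (SE; adjusted p = 0.0123), and rose to an adjusted p of 0.0537 without DIFF replicate 2. When regions were ranked by fold enrichment in place of −log10 p, neither passed, with adjusted p of 0.0661 at the start and 0.0954 upstream.

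Downstream of Phlda3 the direction was mixed. A region 5.00 kb past the start (chr1:135770942-135771592) had percentiles of 74.0, 58.5 and 75.4 in PROLIF, of 36.1 and 26.0 in DIFF replicates 1 and 4, and no peak in DIFF replicate 2. Lacking a peak in 1 library it entered no test. The PROLIF-only region, chr1:135782830-135783431, covered a start of Tnni1, a slow skeletal muscle troponin gene, with percentiles of 59.8, 68.2 and 41.5. The DIFF-only region, chr1:135787947-135788060, lay in an intron of Tnni1, was 114 bp wide and had percentiles of 45.6, 43.1 and 41.3. Phlda3 thus held regions of both directions within 1 window, with 8, 6 and 7 peaks in PROLIF and 7, 6 and 7 in DIFF.

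Sesn2 (ENSMUSG00000028893.8, chr4:132492032-132510501, minus strand) encodes sestrin 2, an antioxidant and nutrient-stress protein that restrains mTORC1. The start region (chr4:132509449-132510746) had percentiles of 81.5, 76.5 and 85.6 in PROLIF and of 91.5, 85.2 and 86.9 in DIFF, with an overlap at a single pair of libraries and an adjusted p of 0.252. The antisense gene Gm12981 also has a start within 3 kb, and ATAC-seq does not tell strands apart. The region 5.13 kb upstream (chr4:132514869-132515965) was stronger than the start region in every library, with percentiles of 90.1, 88.6 and 91.7 in PROLIF and of 93.6, 90.2 and 95.6 in DIFF (adjusted p = 0.316).

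Summed over the 10 windows there were 52, 42 and 43 peaks in PROLIF replicates 1, 2 and 4, and 57, 46 and 59 in DIFF. The mean was 45.7 ± 5.51 in PROLIF (SD, n = 3) and 54 ± 7 in DIFF, which overlapped (two-sided exact permutation test over 3 libraries a state, p = 0.200, where 0.1 is the smallest p that 3 libraries against 3 can give). Without Mdm2 the counts were 40, 38 and 38 in PROLIF and 43, 42 and 49 in DIFF, which did not overlap (exact permutation p = 0.10). As a share of the list the difference was small. The other 9 genes took 4.83, 5.70 and 6.33 of every 10000 peaks in PROLIF and 6.03, 5.94 and 5.57 in DIFF (exact permutation p = 0.800). All 10 genes took 6.58 ± 0.504 per 10000 in PROLIF (SD, n = 3) and 7.07 ± 0.809 in DIFF, with an exact permutation p of 0.50. Without replicate 1 of both states that difference of 0.482 changed sign, to -0.131.

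The wider pathway was read from 35 other genes. A peak within 3 kb of a start in all 6 libraries was found for 33 of them, against 63.2% of all protein-coding genes. These were 10 of 10 regulators, among them Mdm4, Atm and Chek2, 10 of 10 targets in cell-cycle arrest and stress, among them Cdkn1a, Gadd45a and Btg2, and 7 of 7 repair targets. The same held for 5 of 6 death targets and 1 of the 2 p53 family genes. The gene that lacked it among the death targets was Tnfrsf10b, a TRAIL death receptor, with percentiles of 38.7 and 8.73 in PROLIF replicates 1 and 2, none in replicate 4, and 7.66, 16.9 and 37.5 in DIFF. Trp63 of the p53 family had a peak in 1 library, PROLIF replicate 1, at percentile 27.5.

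For each of the 33, the region over a start was tested, or, where no region lay over one, the best region within 3 kb. Of 31 genes with a region over a start, 1 ranked higher in DIFF and 3 in PROLIF, where 9.29% and 3.70% of all start regions did so. Of the 2 genes tested at another region, Usp7 ranked higher in DIFF, where 9.96% of regions over no start did so. At Ppm1d, which encodes the phosphatase WIP1 that switches the response off, percentiles were 87.2, 77.6 and 83.0 in PROLIF and 94.6, 87.9 and 91.8 in DIFF (adjusted p = 0.0402). For Usp7, a deubiquitinase of MDM2 and p53 (chr16:8689595-8792308, minus strand), the region tested was chr16:8738667-8739413, inside the gene body. It was the best of 4 regions within 3 kb of a start and covered no coding start itself. Its percentiles were 87.2, 82.8 and 81.5 in PROLIF and 87.9, 94.4 and 92.2 in DIFF (adjusted p = 0.0469). In the other direction, Chek1, the checkpoint kinase of replication stress, had 95.5, 95.3 and 93.3 in PROLIF and 91.5, 91.3 and 92.2 in DIFF (adjusted p = 0.0341). Eda2r, an ectodysplasin receptor listed here among the death targets, had 95.0, 94.9 and 95.0 in PROLIF and 90.3, 89.3 and 94.4 in DIFF (adjusted p = 0.0379). Pidd1, a death-domain protein of the PIDDosome, had 75.5, 72.2 and 45.4 in PROLIF and 40.1, 42.6 and 47.7 in DIFF, where the states overlapped (adjusted p = 0.0205).

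Each of these 5 calls was lost on leaving out at least 1 library, with adjusted p of up to 0.228 for Usp7 without DIFF replicate 2. Ranked by fold enrichment, the Chek1 difference turned from -0.34 to 0.09 and that of Eda2r from -0.36 to 0.01. With the replicate block the counts were 5 of 33 higher in DIFF, with Atm, Aen and Gdf15 added, and 3 of 33 higher in PROLIF. The block also raised the calls over all 40164 regions, to 13.4% in DIFF and 13.7% in PROLIF. The share among start regions alone is not given for the block.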

How the data were processed

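Peak lists of 6 ATAC-seq libraries were analysed. By the study's methods, adapters were removed with Cutadapt, Trimmomatic dropped reads under 20 bases, Bowtie2 aligned the pairs to GRCm38, and Picard flagged duplicates. MACS2 then called narrow peaks in each library alone (false discovery rate 0.05). Versions, any transposase shift and any blacklist are not given in the sources used here, and each can move peak edges. The deposited score was not used. The deposited fold enrichment is a ratio over local background, and the deposited −log10 p and −log10 q values test against it. Read totals were not used, so depth is given as the background pileup that a Poisson model derives from fold and p of every peak.

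Peaks sharing 1 bp or more were merged. Genes and starts came from GENCODE M21, and sequences from RefSeq's GRCm38.p6. Ranks were compared with limma 3.58.1 (R 4.3.3, trended variance, two-sided), and single values by exact permutation of the states with Python 3.11.15 and scipy 1.17.1. Paired differences of single values were also tested by sign flips. The scripts were tested on simulated data. P-values measure the spread between these libraries. Alternatives were stricter q, lists cut to 60006 or 20000 peaks, other windows, promoters, overlaps and motif settings, fold in place of p, each library left out and the replicate block.

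The rule for names took all members with their start, state-only, passing and motif-bearing regions and their best region away from starts, and pathway genes that lacked a shared promoter peak or passed the test. Other regions were named after their values were seen. The members, lists and rules were chosen with earlier results of these data known. Both states carry replicate numbers 1, 2 and 4 in the labels. The study describes ATAC-seq on the cultures also used for RNA-seq, in both states. It does not state that libraries of the same number share a culture. Deviations of the rank score from the state mean correlated at 0.142, 0.154 and 0.127 between libraries of the same number and at -0.106 to -0.0333 between others. Such deviations cancel within a state, so the negative values follow from the positive ones and add no support. The numbers were taken to pair the libraries on these weak correlations. The main fit and the permutation tests left the pairing out, and the replicate block and the sign flips took it in.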

Additional observations from a re-analysis of the deposited data

How the results depend on the processing

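The lists hold what passed a caller, DIFF replicate 4 was the deepest library, and with 3 libraries a state 0.1 is the smallest p of the exact permutation test. The difference in peaks of 8.33 stayed positive under every alternative run (5.83 to 12.3 with a library left out), but was 3 with lists of equal length, 2.33 with the strongest 20000 peaks, 4 with windows of 5 kb and 17.3 with 50 kb. The difference in share ran from 0.0184 to 0.773 with a library left out and was -0.131 without replicate 1 of both states, 0.187 at a q of 0.001, 0.222 without Mdm2, 0.232 with windows of 5 kb, 1.17 with the strongest 20000 peaks and 1.32 with windows of 50 kb. Member regions ranked higher in PROLIF numbered 1 with lists of equal length, log2 fold, ranks by fold, windows of 5 kb and without replicate 1 of both states, 0 with the strongest 20000 peaks, and 1 to 2 with a library left out. Those higher in DIFF numbered 2 with the strongest 20000 peaks, windows of 5 kb and ranks by fold, and 7 with the replicate block. DIFF-only regions numbered 1 with the strongest 20000 peaks, 0 with 5 kb, 7 with 50 kb, 5 without replicate 1 of both states, and 2 to 7 with a library left out. In the paired form of the block, a region counted where DIFF alone had a peak in at least 2 replicate pairs and PROLIF alone in none. That gave 10 of the 68 regions (against 11.1% of all regions). The reverse rule was met only by the region at the Tnni1 start (against 6.29% of all regions). PROLIF-only regions numbered 0 with 5 kb and 2 with 50 kb or without replicate 1 of both states. Regions in all 6 libraries numbered 16 with the strongest 20000 peaks or 5 kb and 54 with 50 kb. Apart from the replicate block, the shares over all regions under these alternatives are not given. The region counts thus show how the settings act and not a trait of the members. The p53 element was found in 4 regions over their whole width, 1 with at most 1 mismatch and 0 with none. The Mdm2 ratio of replicate 1 was 4.00 with the strongest 20000 peaks, an alternative chosen after seeing the data.

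Differences changed sign at the Trp53 start (log2 fold, -0.04), the Bbc3 start (0.01 by log2 fold, 0.02 by ranks of fold), Chek1 (0.08 and 0.09) and Eda2r (0.03 and 0.01). At the Ccng1 start the value was -0.04 without replicate 1 of both states and -0.03 to 0.11 with a library left out, and at the Mdm2 start it was -0.20 to 0.74. The causes were not tested. Beyond the calls named beside their results, the replicate block changed no other call. No value could be had with the strongest 20000 peaks for the Trp53 and Bax starts, the passing regions of Trp53, Pmaip1 and Bbc3 and Pidd1, or with equal length for the Bbc3 intron.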
